A study of Homo sapiens with 12 samples.

Results

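The mRNAs of 10 factors that find and check the start codon were followed in H1299 cells, an established human non-small-cell lung cancer line, after knockdown of EIF3G, which encodes a subunit of the initiation factor eIF3. The 10 genes were taken by name as a group of scanning, start codon and eIF2 factors, without use of their measured values: EIF1, EIF1AX, EIF5, EIF2S1, EIF2S2, EIF2S3, EIF5B, EIF2D, BZW1 and BZW2. All 10 are among the 16172 genes of the expression table, and all 10 passed the filter on low values that left 10605 genes for testing. There were 3 libraries in each of 4 groups: siEIF3G polysomal, siCtrl polysomal, siEIF3G input and siCtrl input. siEIF3G cells received a mix of 2 siRNAs against EIF3G, and siCtrl cells received a control siRNA. All cells were transfected with the same reagent and lysed 72 hours later. Input RNA came from 10% of the cleared lysate, and polysomal RNA from the ribosome-rich part of a 10% to 50% sucrose gradient. Levels are in TPM (transcripts per 1000000 transcripts), which correct for transcript length and are shares of a library, so a change in the total amount of mRNA would not show in them. A smaller number of cells and less mRNA per cell likewise cannot be told apart.

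Initiation in human cells begins when eIF2, a trimer of the alpha (EIF2S1), beta (EIF2S2) and gamma (EIF2S3) subunits, carries initiator tRNA and GTP to the small ribosomal subunit as the ternary complex. eIF1 and eIF1A hold the subunit in an open form that scans along the 5′ leader, and eIF5 makes eIF2 hydrolyse its GTP. When the start codon pairs with the initiator tRNA, eIF1 leaves, and eIF5B, which is itself a GTPase, brings the large subunit into place. BZW1 and BZW2 are called eIF5 mimics because they resemble the carboxy-terminal part of eIF5 and bind eIF2 without activating its GTPase, and EIF2D encodes a protein that can place initiator tRNA without eIF2 and takes part in ribosome recycling. eIF3 binds the same small subunit as all of these factors.

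In the RefSeq annotation of GRCh38.p14, EIF1 spans chr17:41688885-41692668, EIF1AX chrX:20124525-20141838 and EIF5 chr14:103334237-103345025. The eIF2 genes are at chr14:67360328-67386516 (EIF2S1), chr20:34088309-34112243 (EIF2S2) and chrX:24054956-24078810 (EIF2S3). EIF5B is at chr2:99337389-99401326, EIF2D at chr1:206569146-206612465, BZW1 at chr2:200811589-200827338 and BZW2 at chr7:16646181-16706517. All are protein coding. The same annotation names 7 pseudogenes of EIF1, 7 of EIF2S2 and 2 each of EIF1AX, EIF5, EIF2S3 and BZW1, so reads of these genes may have been shared with near copies and their levels are uncertain to that extent.

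Promoter sequences were in hand for 9 of the 10 genes, in 13 windows of 300 bases around RefSeq starts, and were compared with 12709 windows of 8722 tested genes. EIF2S2 had no entry. The stretches shown run from 60 bases before the start to the first 20 transcribed bases, in GRCh38.p14, 5′ to 3′ on the gene's strand. They are those of the 3 genes that passed the test between polysomal and input RNA in control cells (EIF2S3, EIF2D and EIF5B), of the most abundant mRNA (EIF1), and of EIF5 and BZW1, whose ratio is described further on. For EIF5 and BZW1, which have several starts, the first window is shown. Capitals mark matches to the motifs named in the next paragraph.
EIF2S3, chrX:24054896-24054975, + strand: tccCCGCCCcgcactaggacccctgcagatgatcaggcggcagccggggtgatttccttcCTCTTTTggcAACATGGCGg
EIF2D, chr1:206612446-206612525, - strand: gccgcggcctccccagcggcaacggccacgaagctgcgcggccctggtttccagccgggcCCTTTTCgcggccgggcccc
EIF5B, chr2:99337329-99337408, + strand: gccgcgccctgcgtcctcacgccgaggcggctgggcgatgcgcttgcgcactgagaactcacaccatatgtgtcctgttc
EIF1, chr17:41688825-41688904, + strand: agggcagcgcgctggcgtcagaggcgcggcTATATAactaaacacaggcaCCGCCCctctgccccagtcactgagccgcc
EIF5, chr14:103334177-103334256, + strand: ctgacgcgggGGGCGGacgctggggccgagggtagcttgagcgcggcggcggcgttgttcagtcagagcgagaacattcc
BZW1, chr2:200811529-200811608, + strand: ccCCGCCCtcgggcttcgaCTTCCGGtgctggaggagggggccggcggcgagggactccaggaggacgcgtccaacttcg

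EIF2S3 and EIF2D began with a C followed by at least 4 pyrimidines, the kind of start that is typical of mRNAs of the translation machinery. The runs are 7 pyrimidines long in both, and such a start was found in 15.4% of the 13 windows of the group and 5.41% of all windows, read on the gene's strand only. EIF5B has no such run. EIF1 alone held a TATA box (TATANA), 30 bases before its start, which 9.75% of all windows hold. GC boxes (GGGCGG) were in 11 of the 13 windows, or 84.6%, against 68.7% of all windows. The ETS motif (CCGGAAG) was in 2 windows of BZW1, or 15.4%, against 18.5% of all, and the NRF1 motif (GCGCATGC) in the EIF2S1 window, against 5.27% of all. The YY1 motif (AANATGGCG) was in windows of EIF5 and EIF2S3, or 15.4%, against 6.68%. None of the 13 windows held TGACGTCA, CACGTG or TGATGNAA, the CRE, E-box and amino acid response elements, which 2.98%, 9.9% and 1.79% of all windows hold. Motifs other than the pyrimidine start were searched on both strands over the 300 bases, and overlapping matches were allowed.

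EIF3G itself had 143, 132 and 69.2 TPM in siEIF3G polysomal RNA, against 1680, 1916 and 1803 TPM in siCtrl polysomal RNA. It had 60.7, 84.7 and 47.3 TPM in siEIF3G input RNA, against 1158, 1092 and 878 TPM in siCtrl input RNA. The target was thus low in all 6 knockdown libraries, with a log2 fold change of -4.02 in polysomal RNA (SE 0.29, adjusted p = 3.76e-05, limma) and -4.03 in input RNA (SE 0.29, adjusted p = 3.71e-05). A library held 13787 to 14659 genes with a value above 0 TPM, and its read depth is unknown, since TPM keep no counts. Of the 12 libraries, 3 correlated more closely, over genes, with the libraries of the opposite fraction and same siRNA than with their own group: siEIF3G polysomal 3, siEIF3G input 2 and siCtrl input 1. MTRNR2L2, 1 gene whose level separated the labelled fractions, had 9.1, 1581 and 1258 TPM in these 3. It had 5.41 to 13.1 TPM over the 6 polysomal and 1258 to 2735 TPM over the 6 input libraries. Why the 3 stood apart was not tested. Values without these 3 libraries stand beside those with all 12 for the 10 mRNAs, their ratios and the further gene lists. Of the line markers, KRT8 (108 to 429 TPM), KRT18 (435 to 1934 TPM) and VIM (265 to 3105 TPM) were high, while CDH1, EPCAM and KRT19 stayed at or below 0.61 TPM in all 12 libraries. The mesenchymal markers CDH2 (0.15 to 6.83 TPM) and ZEB1 (0.32 to 8.92 TPM) were low, unlike VIM. Of other cell types, the endothelial PECAM1 and VWF, the fibroblast COL1A1 and the neuroendocrine CHGA stayed at or below 0.13 TPM, whereas CD68 (59.0 to 132 TPM) and SYP (9.13 to 36.3 TPM) were present; the 6 such markers in the table summed to 77.3 to 168 TPM in a library. Their part in the results was not tested.

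EIF1 was the most abundant of the 10 mRNAs and EIF5B the least abundant in each of the 4 groups. EIF1 averaged 232 ± 126 TPM in siEIF3G polysomal, 108 ± 5.57 TPM in siCtrl polysomal, 271 ± 148 TPM in siEIF3G input and 167 ± 50.4 TPM in siCtrl input RNA (SD, n = 3 libraries each). EIF5B averaged 7.23 ± 6.17, 1.94 ± 1.02, 19.5 ± 12.5 and 24.2 ± 18.3 TPM in the same groups. Among the genes tested, the mean level of EIF1 stood between percentiles 88.5 and 95.3, and that of EIF5B between 29.8 and 65.0. EIF2S2 and BZW1 held the next places in every group, and EIF2D and BZW2 were in the lower part of the order. The spread between libraries was as large as most of these steps: the TPM ranges of neighbours in the order overlapped in every group except EIF1 above EIF2S2 and BZW2 above EIF5B in siCtrl polysomal RNA, and EIF2D above EIF5B in siEIF3G polysomal RNA. Within single libraries the order was steadier near its top. EIF1 lay above the next mRNA in 3 of 3 libraries of each group except siCtrl input, where it did in 2. EIF2S2 lay above BZW1 in 2 of 3 libraries of each siEIF3G group. Further down it was less so: EIF1AX lay above EIF5, and EIF5 above EIF2D, in 1 of 3 siCtrl polysomal libraries each. EIF5 lay above EIF2S3 in 1 of 3 siEIF3G input libraries. At the bottom BZW2 lay above EIF5B in 3 of 3 libraries of each input group. The 3 eIF2 mRNAs were not at equal levels, although the protein holds each subunit in equal number. EIF2S2 made up 48.7% to 63.5% of their summed TPM, EIF2S1 17.3% to 35.7% and EIF2S3 11.7% to 28.6% over the 12 libraries.

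**Figure D1:**
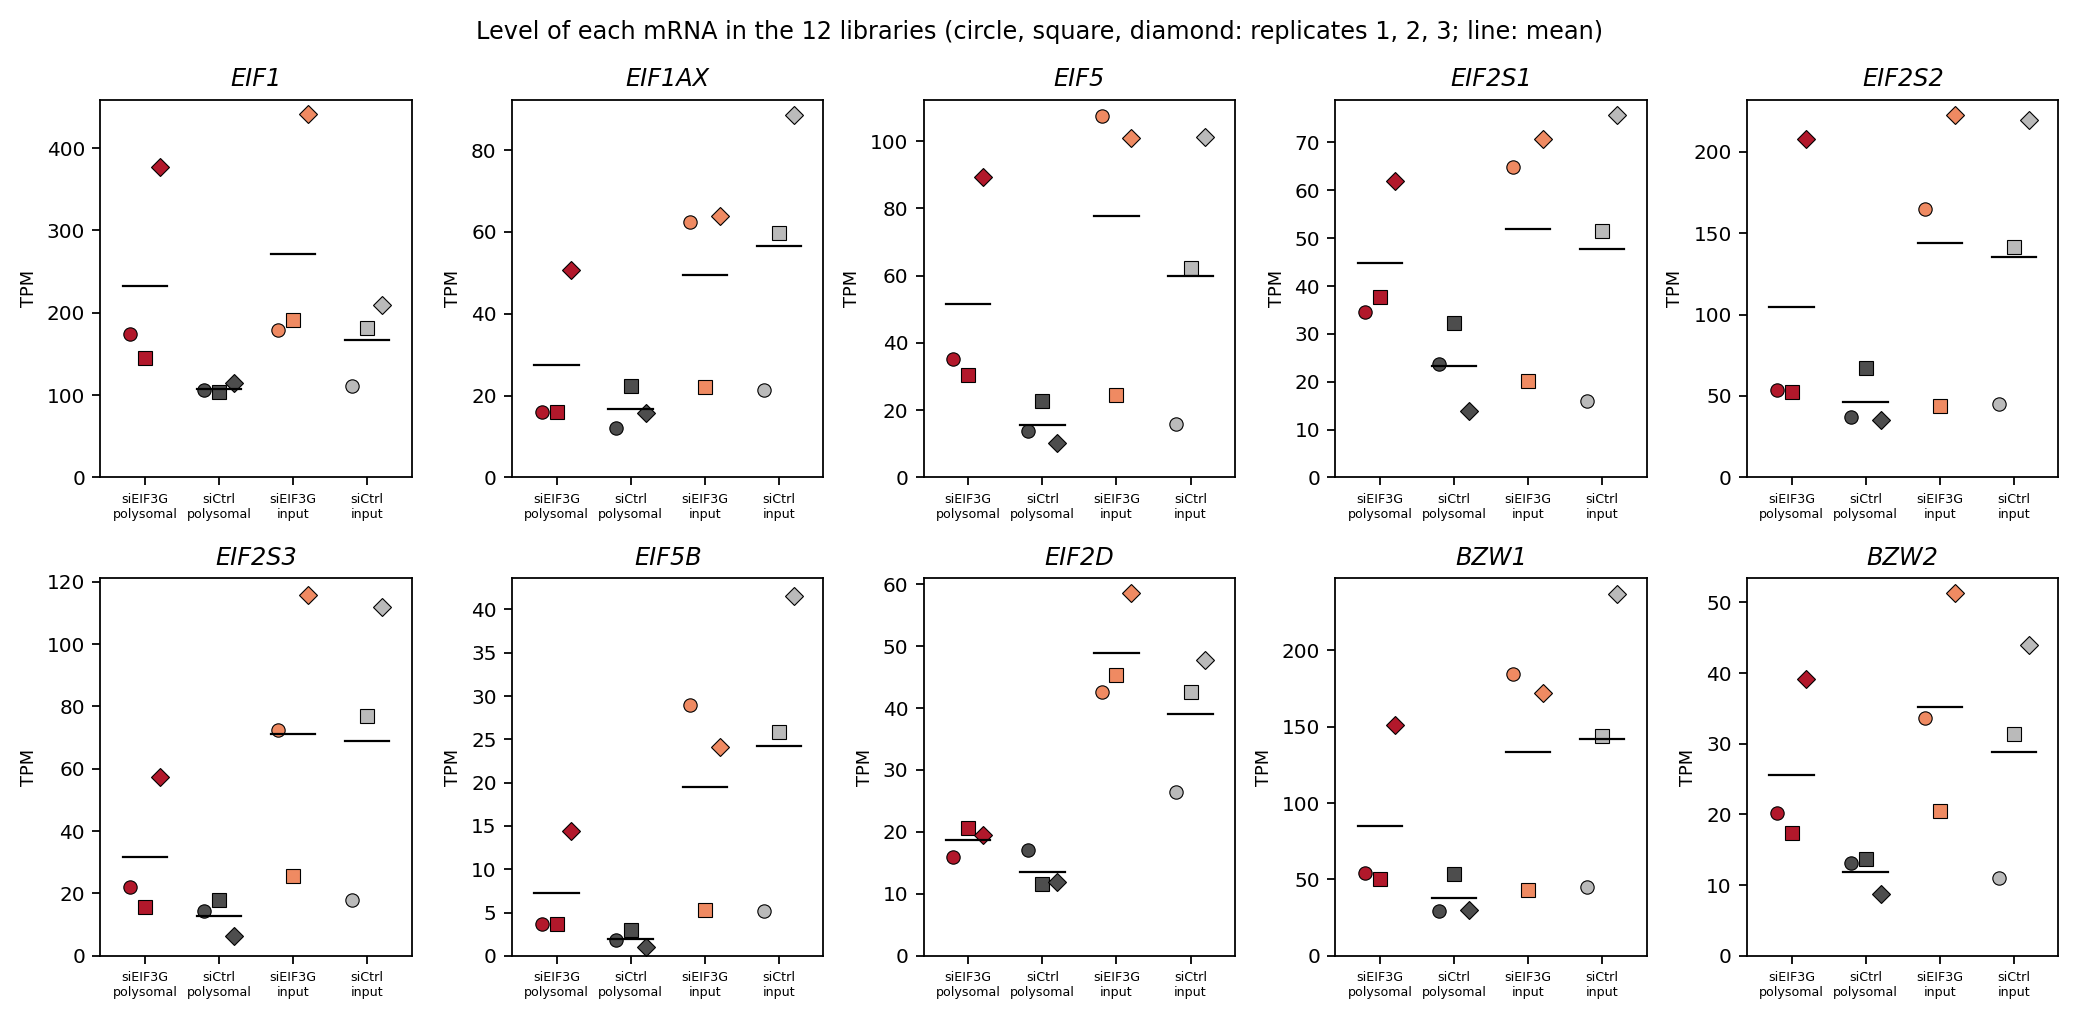
TPM of each of the 10 mRNAs in siEIF3G polysomal, siCtrl polysomal, siEIF3G input and siCtrl input RNA, with 1 point for each library and a line at the mean of 3. In most panels siEIF3G polysomal 3 lies above the other polysomal libraries, and siEIF3G input 2 and siCtrl input 1 are the lowest input libraries; EIF2D is tighter, at 11.7 to 20.6 TPM in the 6 polysomal and 26.5 to 58.6 TPM in the 6 input libraries.

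In polysomal RNA, none of the 10 mRNAs passed the test between siEIF3G and siCtrl cells (adjusted p of 0.65 to 0.694, limma with Benjamini-Hochberg adjustment over all genes), although all 10 were higher on average in siEIF3G cells. Across all tested genes 0.0189% passed. The median log2 fold change of the 10 was 0.98, against 0.33 over all tested genes, of which 72.7% were positive. At an unadjusted p under 0.05 were 2 of the 10, EIF1 and EIF5, against 6.69% of all tested genes. With median-of-ratios size factors 8 of the 10 were positive, EIF1AX and EIF2D being the exceptions, and the median of all genes moved to -0.05.

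Of the factors that hold the scanning subunit open, EIF1 had 175, 145 and 377 TPM in siEIF3G polysomal RNA, against 107, 103 and 114 TPM in siCtrl polysomal RNA. Its log2 fold change was 0.97 (SE 0.40). The groups did not overlap, and the control libraries lay close together. EIF1AX had 16.0, 15.9 and 50.7 TPM in siEIF3G polysomal RNA and 12.2, 22.3 and 15.7 TPM in siCtrl polysomal RNA, with a log2 fold change of 0.51 (SE 0.58). The EIF1AX groups overlapped.

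EIF5, the GTPase-activating factor, had 35.2, 30.5 and 89.3 TPM in siEIF3G polysomal RNA, against 13.7, 22.7 and 10.2 TPM in siCtrl polysomal RNA. The log2 fold change was 1.58 (SE 0.69), and the groups did not overlap. It was the highest of the 10 with a pseudocount of 1, but with a pseudocount of 0.1 EIF5B stood at 1.66 and EIF5 at 1.64. The mimic BZW1 had 54.1, 50.1 and 151 TPM in siEIF3G polysomal RNA and 29.4, 53.5 and 30.1 TPM in siCtrl polysomal RNA (log2 fold change 1.02, SE 0.66), with overlap. BZW2 had 20.3, 17.4 and 39.2 TPM in siEIF3G polysomal RNA, against 13.2, 13.6 and 8.72 TPM in siCtrl polysomal RNA (0.99, SE 0.50). The BZW2 groups did not overlap.

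Among the eIF2 subunits, EIF2S1 had 34.6, 37.8 and 61.9 TPM in siEIF3G polysomal RNA, against 23.6, 32.2 and 13.9 TPM in siCtrl polysomal RNA, and all 3 knockdown libraries were higher (log2 fold change 0.94, SE 0.58). EIF2S2 had 53.8, 52.3 and 208 TPM in siEIF3G polysomal RNA and 37.2, 67.0 and 35.2 TPM in siCtrl polysomal RNA (0.90, SE 0.70). EIF2S3 had 22.1, 15.8 and 57.4 TPM in siEIF3G polysomal RNA and 14.2, 18.0 and 6.51 TPM in siCtrl polysomal RNA (1.13, SE 0.71). The beta and gamma subunit groups overlapped. EIF5B had 3.68, 3.66 and 14.4 TPM in siEIF3G polysomal RNA, against 1.86, 3.0 and 0.97 TPM in siCtrl polysomal RNA, without overlap (1.3, SE 0.77). EIF2D had 15.9, 20.6 and 19.6 TPM in siEIF3G polysomal RNA and 17.0, 11.7 and 12 TPM in siCtrl polysomal RNA, a difference of 0.45 (SE 0.31) with overlap.

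The groups were thus separate for 5 of the 10 mRNAs, higher in siEIF3G for each; of all tested genes 21.6% were separate and higher, and 7.61% separate and lower. Much of the size of these differences came with siEIF3G polysomal 3. Without that library the log2 fold changes were 0.56 for EIF1, -0.02 for EIF1AX, 1.10 for EIF5, 0.51 for BZW1 and 0.64 for BZW2. They were 0.69 for EIF2S1, 0.25 for EIF2S2, 0.61 for EIF2S3, 0.73 for EIF5B and 0.41 for EIF2D. Thus 9 of the 10 were positive without it, and their median was 0.58, which is 0.38 above that of all genes. The summed TPM of the 10 mRNAs was 430, 389 and 1068 in siEIF3G polysomal RNA, against 269, 347 and 247 in siCtrl polysomal RNA, so the third knockdown library stood well above the first 2.

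**Figure D2:**
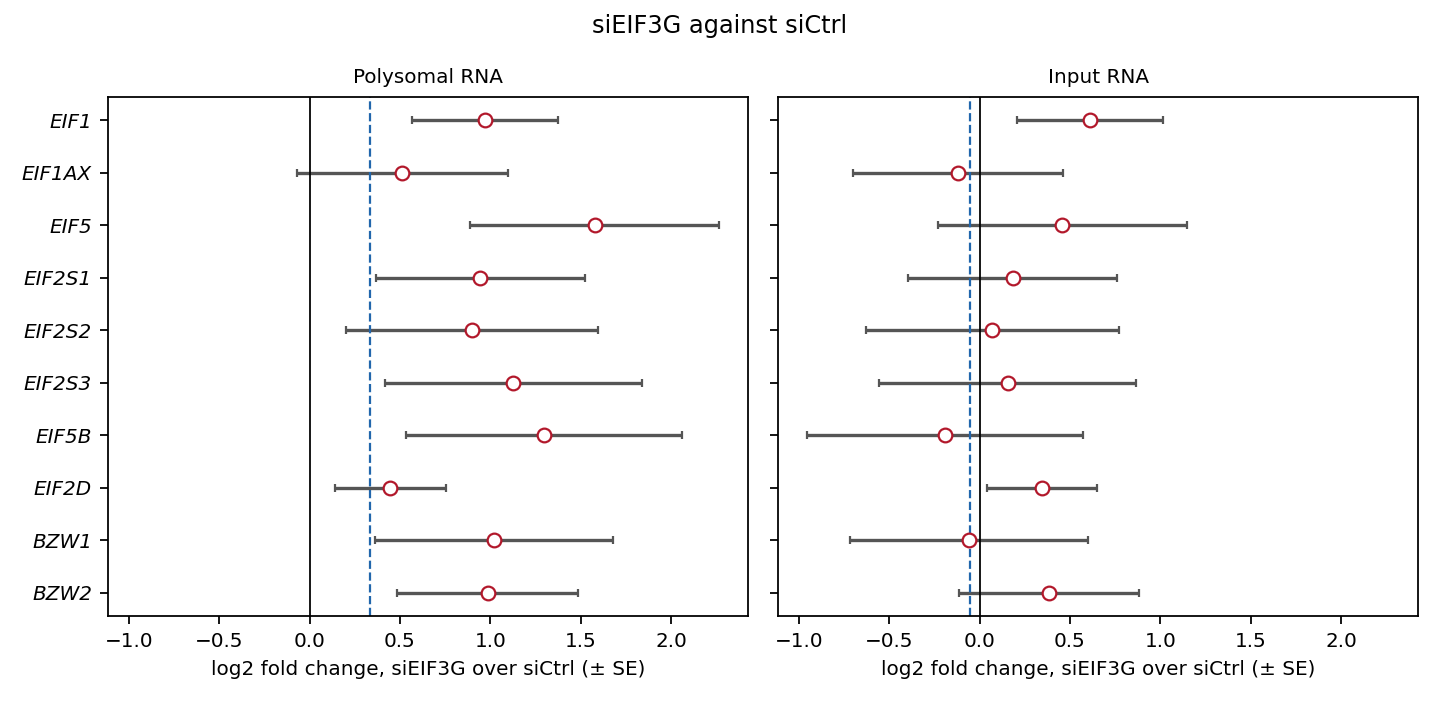
Log2 fold change of each mRNA, siEIF3G over siCtrl, in polysomal RNA (left) and input RNA (right), with standard errors from limma; the dashed line is the median of all tested genes (0.33 polysomal, -0.05 input). All 10 points lie right of the dashed line in polysomal RNA and 7 of 10 do in input RNA, and all are open because none passed the test.

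In input RNA, which reports the level in the whole lysate, none of the 10 passed the test either (adjusted p = 1.00 for each, limma), none had an unadjusted p under 0.05, and no mRNA had groups apart. Of all tested genes 0.0189% passed, 1.36% had an unadjusted p under 0.05, 1.88% were separate and higher and 1.8% separate and lower. The log2 fold changes were positive for 7 mRNAs and negative for EIF1AX, EIF5B and BZW1, with a median of 0.17, against -0.05 over all genes, of which 43.0% were positive. EIF1 had 179, 192 and 442 TPM in siEIF3G input RNA and 111, 182 and 209 TPM in siCtrl input RNA, and at 0.61 (SE 0.40) its log2 fold change was the highest of the group. EIF5 had 107, 24.6 and 101 TPM in siEIF3G input RNA and 15.9, 62.4 and 101 TPM in siCtrl input RNA (0.46, SE 0.69). EIF5B was lowest, with 29.0, 5.31 and 24.1 TPM in siEIF3G input RNA and 5.18, 25.9 and 41.6 TPM in siCtrl input RNA (-0.19, SE 0.77).

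Single libraries set the sign of many of these input values. EIF2S2 had 165, 43.8 and 223 TPM in siEIF3G input RNA and 44.8, 141 and 220 TPM in siCtrl input RNA, so that 1 library of each group was several times below the other 2 (log2 fold change 0.07, SE 0.70). EIF2S1 had 64.8, 20.2 and 70.7 TPM in siEIF3G input and 15.9, 51.4 and 75.8 TPM in siCtrl input RNA (0.18, SE 0.58). EIF2S3 had 72.6, 25.6 and 116 TPM in siEIF3G input and 17.8, 77.1 and 112 TPM in siCtrl input RNA (0.15, SE 0.71). All 3 eIF2 mRNAs showed this same pair of low libraries, siEIF3G input 2 and siCtrl input 1. It was also seen in EIF1AX, with 62.3, 22.1 and 64.0 TPM in siEIF3G input and 21.4, 59.8 and 88.5 TPM in siCtrl input RNA (-0.12, SE 0.58). BZW1 had 185, 42.9 and 172 TPM in siEIF3G input and 45.1, 144 and 237 TPM in siCtrl input RNA (-0.06, SE 0.66). BZW2 had 33.7, 20.5 and 51.3 TPM in siEIF3G input and 11.1, 31.4 and 43.9 TPM in siCtrl input RNA (0.38, SE 0.50). EIF2D varied less, with 42.6, 45.3 and 58.6 TPM in siEIF3G input and 26.5, 42.7 and 47.7 TPM in siCtrl input RNA (0.35, SE 0.31). Over single libraries left out, between 2 and 10 of the 10 input fold changes were positive: 10 without siEIF3G input 2, siCtrl input 2 or siCtrl input 3, 5 without siEIF3G input 1, 4 without siEIF3G input 3 and 2 without siCtrl input 1. Without both siEIF3G input 2 and siCtrl input 1, the log2 fold changes were 0.53 for EIF1, -0.20 for EIF1AX, 0.38 for EIF5, 0.11 for EIF2S1 and 0.12 for EIF2S2. They were -0.02 for EIF2S3, -0.30 for EIF5B, 0.14 for EIF2D, -0.05 for BZW1 and 0.16 for BZW2, so that EIF2S3 alone turned its sign.

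On average the 10 mRNAs moved with the rest of the library from sample to sample, EIF1 and EIF2D less closely. Pearson r with the main axis of variation within groups was 0.67 for EIF1 and 0.66 for EIF2D. It was 0.93 (EIF1AX) to 0.99 (EIF5) for the rest of the 10. The mean of the 10 on the log2(TPM + 1) scale was 4.87, 4.79 and 6.12 in siEIF3G polysomal, 4.26, 4.65 and 3.93 in siCtrl polysomal, 6.29, 4.95 and 6.60 in siEIF3G input and 4.57, 6.10 and 6.61 in siCtrl input RNA. The median of all tested genes on that scale was 3.01, 3.03 and 3.40 in siEIF3G polysomal, 2.79, 2.83 and 2.37 in siCtrl polysomal, 3.87, 3.09 and 3.99 in siEIF3G input and 2.78, 3.96 and 4.29 in siCtrl input RNA. The 3 libraries in which the 10 mRNAs were highest, siCtrl input 3, siEIF3G input 3 and siEIF3G input 1, were among the 4 in which the typical gene was highest. The 5 other genes whose log2(TPM + 1) profile over the 12 libraries was most like the mean of the group were GPATCH4 (Pearson r = 0.996), MRPL19 (0.995), OLA1 (0.994), PAIP1 (0.994) and ENOPH1 (0.994), out of 7251 genes that averaged 5 TPM or more. Such likeness was common, since 32.6% of those genes had an r over 0.9, and the points share the difference between fractions and the libraries that stood apart.

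**Figure D3:**
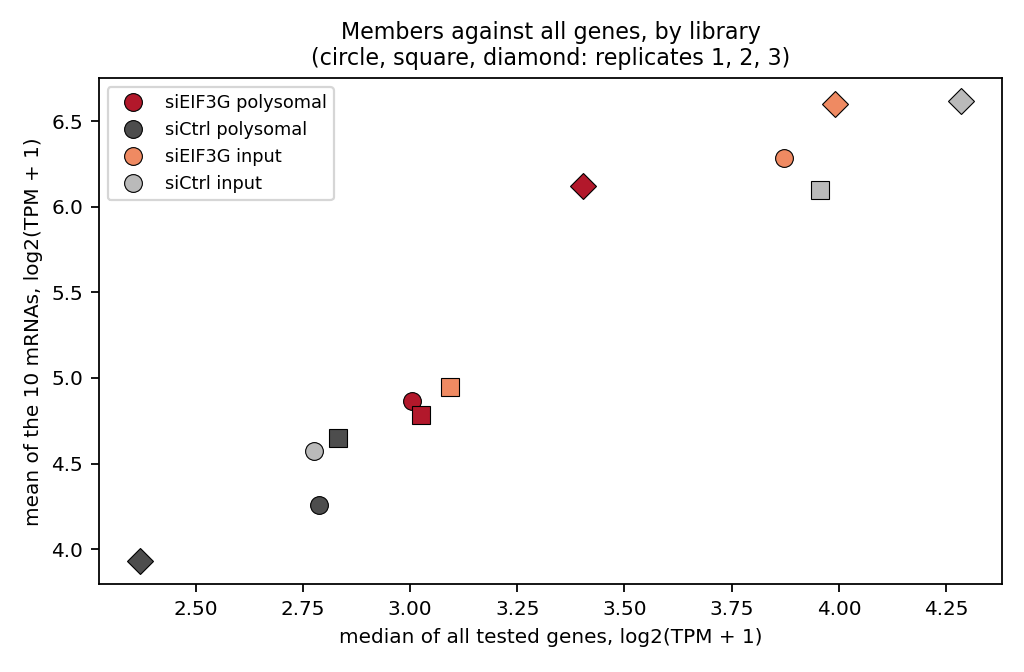
Mean log2(TPM + 1) of the 10 mRNAs (vertical axis) against the median log2(TPM + 1) of all tested genes (horizontal axis), with 1 point per library. siEIF3G polysomal 3 (6.12) lies above every other polysomal library, and siEIF3G input 2 (4.95) and siCtrl input 1 (4.57) lie among the polysomal libraries.

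Polysome loading, the knockdown effect in polysomal RNA minus that in input RNA, was tested as an interaction and none of the 10 passed (adjusted p of 0.908 to 0.95, limma), nor did any tested gene (0%), and none of the 10 had an unadjusted p under 0.05. All 10 log2 differences were positive as deposited, with a median of 0.79, against 0.38 over all genes, of which 73.9% were positive. Of the 10, 8 lay above the median of all genes. EIF5B had 1.49 (SE 1.08), EIF5 1.12 (SE 0.98) and BZW1 1.08 (SE 0.93). EIF2D had 0.10 (SE 0.43) and EIF1 0.36 (SE 0.57). Both had negative values with size factors, -0.44 for EIF2D and -0.21 for EIF1, where the median of all genes was -0.09. The eIF2 subunits had 0.76 (EIF2S1, SE 0.82), 0.83 (EIF2S2, SE 0.99) and 0.97 (EIF2S3, SE 1.00), all within 1 SE of each other. EIF1AX had 0.63 (SE 0.83) and BZW2 0.60 (SE 0.71). Without siEIF3G polysomal 3 the median of the 10 was 0.36, which is 0.10 above that of all genes, and without siEIF3G input 2 it was 0.23. Without the 3 libraries that stood apart the values ran between 0.03 (EIF1) and 1.03 (EIF5B).

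Polysomal against input RNA within one siRNA compares the share of each mRNA on ribosomes with its share in the lysate. In siEIF3G cells EIF2D was lower on polysomes, with 15.9, 20.6 and 19.6 TPM in polysomal RNA, against 42.6, 45.3 and 58.6 TPM in input RNA. The difference was -1.33 on the log2 scale (SE 0.31, adjusted p = 0.0335, limma), and it was 1 call in 10, against 3.14% of all tested genes. It was also the only mRNA of the 10 with separate groups; of all genes 12.7% were separate and lower and 9.4% separate and higher. The call ended with size factors, where the log2 fold change was -0.75 (adjusted p = 0.224, limma) and 0.447% of all tested genes were called. At an unchanged -1.33 it also ended without the trend (adjusted p = 0.057, limma) and with only the groups compared (adjusted p = 0.0873), where 1.4% and 0.641% of all tested genes were called. It ended as well without siEIF3G polysomal 1 or 2, siCtrl polysomal 2 or 3, siEIF3G input 1, 2 or 3, or siCtrl input 2, each left out alone (adjusted p of 0.0526 to 0.189), although the log2 fold change stayed between -1.20 and -1.42. Those fits called 0.413% to 3.89% of all tested genes. The other 9 log2 fold changes ran between -0.07 (EIF2S1) and -1.28 (EIF5B), and the median of the 10, -0.53, was close to that of all genes, -0.49. Of all tested genes 30.2% were positive. With size factors 6 of the 10 were positive, and the median of all genes moved to 0.04.

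In siCtrl cells 3 of the 10 passed, EIF2S3, EIF5B and EIF2D, each lower in polysomal RNA, against 36.9% of all tested genes. EIF2D had 17.0, 11.7 and 12 TPM in polysomal RNA, against 26.5, 42.7 and 47.7 TPM in input RNA (log2 fold change -1.43, SE 0.31, adjusted p = 0.0159). EIF5B had 1.86, 3.0 and 0.97 TPM in polysomal RNA, against 5.18, 25.9 and 41.6 TPM in input RNA (-2.76, SE 0.77, adjusted p = 0.0322). EIF2S3 had 14.2, 18.0 and 6.51 TPM in polysomal RNA and 17.8, 77.1 and 112 TPM in input RNA (-2.09, SE 0.71, adjusted p = 0.0436, limma). EIF5B and EIF2D were the 2 mRNAs whose groups did not overlap, both lower; of all genes 28.9% were separate and lower and 16.9% separate and higher. The EIF2S3 groups overlapped through siCtrl input 1. With size factors EIF5B was the 1 call left: EIF2D was at -0.31 (adjusted p = 0.477, limma) and EIF2S3 at -0.96 (adjusted p = 0.0794). That setting called 43.2% of all tested genes. With a pseudocount of 5, no filter or only the groups compared, EIF2D was the 1 call left (adjusted p = 0.0187, 0.0151 and 0.0484, limma). In those settings EIF5B (adjusted p = 0.0505, 0.0597 and 0.0605, limma) and EIF2S3 did not pass, and 13.3%, 7.73% and 5.75% of all tested genes were called.

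The other 7 log2 fold changes in siCtrl cells were all negative, from -0.58 for EIF1 (SE 0.40) to -1.65 for BZW1 (SE 0.66), and did not pass. The median of the 10 was -1.48, against -0.96 over all genes, of which 28.8% were positive. At an unadjusted p under 0.05 (limma) were 6 of the 10, against 60.7% of all tested genes. With size factors EIF1, EIF2S1 and BZW2 had positive values in siCtrl cells, and the median of all genes moved to 0.05. Without siCtrl input 1 the calls were 9, when 67.9% of all tested genes were called. Without siCtrl polysomal 2, siCtrl polysomal 3, siCtrl input 2 or siCtrl input 3 they were 0, when 1.22% to 2.54% of all genes were called. Without the 3 libraries that stood apart all 10 mRNAs were called lower on polysomes in both siEIF3G cells (median log2 fold change -1.70, against -0.92 over all genes) and siCtrl cells (-2.03, against -1.36). The same setting called 71.3% of all tested genes in siEIF3G and 75.3% in siCtrl cells, and the libraries it leaves out are those that resembled the opposite fraction.

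**Figure D4:**
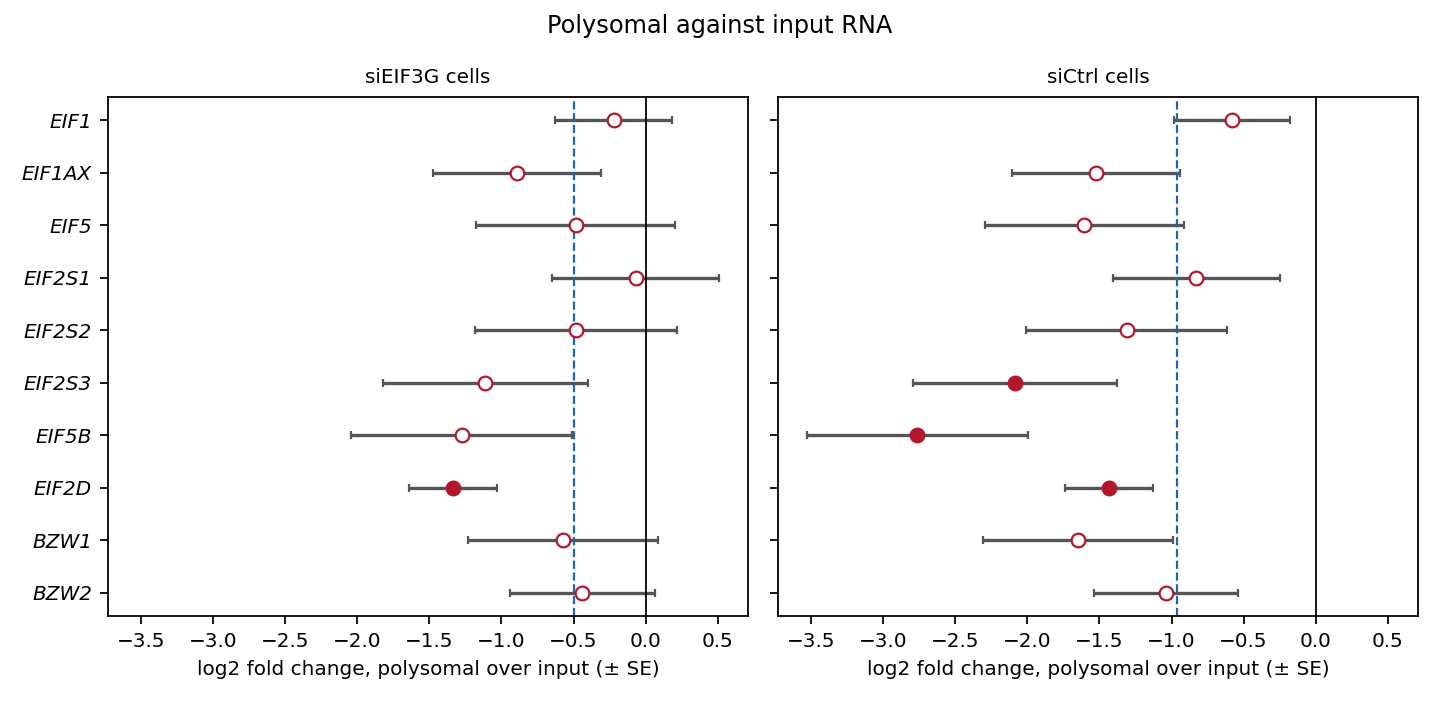
Log2 fold change of each mRNA, polysomal over input RNA, in siEIF3G cells (left) and siCtrl cells (right), with standard errors from limma; filled points passed the test and the dashed line is the median of all tested genes. EIF2D is filled in both panels (-1.33 and -1.43), EIF2S3 (-2.09) and EIF5B (-2.76) in siCtrl cells, and all 20 points lie below 0. Of all tested genes 30.2% were positive in siEIF3G and 28.8% in siCtrl cells.

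Ratios between 2 mRNAs of the same library do not depend on how libraries are scaled, and 5 of them were compared in 4 comparisons (20 exact permutation tests, 2-sided, with 3 libraries against 3, where the smallest possible p is 0.1). The balance of EIF5 to its mimics was higher in siEIF3G cells in both fractions. EIF5 over the sum of BZW1 and BZW2 was 0.473, 0.452 and 0.469 in siEIF3G polysomal RNA, against 0.320, 0.338 and 0.262 in siCtrl polysomal RNA. In input RNA it was 0.492, 0.388 and 0.452 in siEIF3G cells, against 0.283, 0.356 and 0.361 in siCtrl cells. No knockdown library overlapped a control library of its fraction, and the ratio was 1.52-fold higher in polysomal RNA and 1.33-fold higher in input RNA (exact p = 0.1 in each, the smallest possible, adjusted p = 0.286). Without the 3 libraries that stood apart the log2 difference was 0.60 in polysomal and 0.40 in input RNA, against 0.61 and 0.42 with all libraries. Of the 5 ratios, 1 had separate groups in each knockdown comparison. Between fractions 2 did in siEIF3G and 3 in siCtrl cells. How often other pairs of genes have separate groups was not computed.

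Taken against each mimic on its own, a split that was chosen after the joint ratio had been seen and is given with no test, EIF5 over BZW1 was 0.591 to 0.651 in siEIF3G polysomal RNA, against 0.339 to 0.464 in siCtrl polysomal RNA. In input RNA it was 0.574 to 0.586 in siEIF3G cells, against 0.352 to 0.433 in siCtrl cells. EIF5 over BZW2 was 1.74 to 2.28 in siEIF3G polysomal RNA, against 1.03 to 1.66 in siCtrl polysomal RNA. It overlapped in input RNA, at 1.20 to 3.19 in siEIF3G cells and 1.43 to 2.31 in siCtrl cells. BZW1 was the more abundant of the mimics in all 12 libraries and so weighs most in the joint ratio.

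Among the eIF2 subunits the contrast lay between fractions. EIF2S1 over EIF2S3 was 1.56, 2.39 and 1.08 in siEIF3G polysomal RNA, against 0.893, 0.788 and 0.611 in siEIF3G input RNA. In siCtrl cells it was 1.66, 1.79 and 2.14 in polysomal RNA, against 0.896, 0.667 and 0.677 in input RNA. The groups did not overlap in either case, and the ratio was 2.11-fold higher on polysomes in siEIF3G cells and 2.51-fold higher in siCtrl cells (exact p = 0.1 in each, adjusted p = 0.286). In these libraries the alpha subunit mRNA thus held a larger place beside the gamma subunit mRNA on polysomes than in the lysate, though the ratio did not pass. EIF2S2 over EIF2S3 also had separate groups, 1.57-fold higher on polysomes in siEIF3G cells and 1.80-fold higher in siCtrl cells (exact p = 0.1 in each, adjusted p = 0.286). Without the 3 libraries that stood apart the log2 difference of EIF2S1 over EIF2S3 between fractions was 1.39 in siEIF3G and 1.46 in siCtrl cells, against 1.08 and 1.33 with all libraries, and that of EIF2S2 over EIF2S3 was 0.44 and 0.98, against 0.65 and 0.85. Neither ratio separated siEIF3G from siCtrl cells: the log2 difference of EIF2S1 over EIF2S3 was -0.22 in polysomal and 0.03 in input RNA, and that of EIF2S2 over EIF2S3 was -0.29 and -0.09.

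The ratio of EIF1 to EIF5 overlapped in all 4 comparisons. It was 4.96, 4.76 and 4.22 in siEIF3G polysomal RNA and 7.82, 4.54 and 11.2 in siCtrl polysomal RNA (log2 difference -0.67, or -0.60 without siEIF3G polysomal 3, exact p = 0.3 with all libraries, adjusted p = 0.667). The knockdown libraries lay close together and the control libraries were spread widely. BZW1 over BZW2 was lower on polysomes than in input RNA in siCtrl cells without overlap (log2 difference -0.58, or -0.68 without siCtrl input 1, exact p = 0.1 with all libraries, adjusted p = 0.286), and overlapped in the other 3 comparisons.

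**Figure D5:**
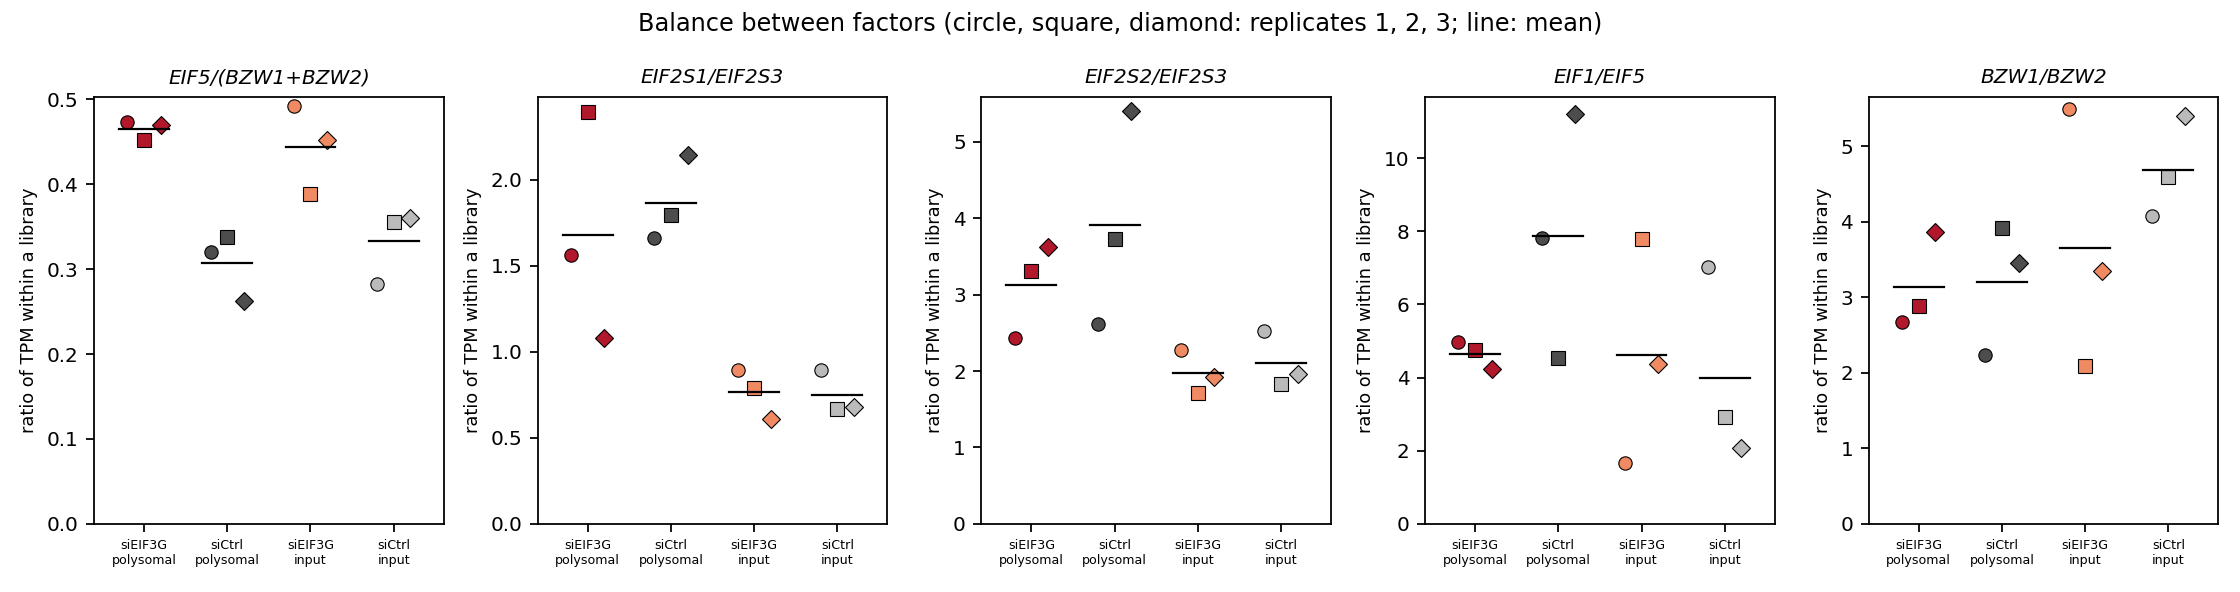
Ratio of TPM within a library for 5 pairings of the factors (vertical axes, linear) in siEIF3G polysomal, siCtrl polysomal, siEIF3G input and siCtrl input RNA, with 1 point for each library and a line at the mean. EIF5/(BZW1+BZW2) is higher in siEIF3G than in siCtrl libraries of the same fraction, and EIF2S1/EIF2S3 and EIF2S2/EIF2S3 are higher in polysomal than in input libraries.

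Around these factors, 3 further lists were described: 12 other factors of start site handling, initiator tRNA delivery, subunit joining and recycling, 16 genes of eIF2 exchange and phosphorylation, and 8 mRNAs with upstream open reading frames that answer to eIF2 activity. In polysomal RNA none of their tested genes (11, 16 and 8) passed between siEIF3G and siCtrl cells. At an unadjusted p under 0.05 (limma) were 2, 1 and 2 of them, against 6.69% of all tested genes. The medians of the log2 fold changes of the 3 lists were 0.63, 0.57 and 0.59, against 0.33 over all genes. At the high end of the first list stood ABCE1, which splits ribosomes after termination, with 18.7 ± 8.94 TPM in siEIF3G and 6.38 ± 3.84 TPM in siCtrl polysomal RNA (1.48, SE 0.68, adjusted p = 0.65, limma; SD, n = 3 each). At its low end stood EIF5A, an elongation and termination factor with near copies in the genome, with 2939 ± 387 TPM in siEIF3G and 3745 ± 535 TPM in siCtrl polysomal RNA (-0.35, SE 0.26). EIF2B3, a subunit of the exchange factor that reloads eIF2 with GTP, had 38.4 ± 12.3 TPM in siEIF3G and 17.2 ± 11.2 TPM in siCtrl polysomal RNA (1.25, SE 0.59). PPP1CA, a catalytic subunit of the phosphatase that acts on eIF2 alpha, had 736 ± 231 TPM in siEIF3G, against 1205 ± 123 TPM in siCtrl polysomal RNA, without overlap (-0.76, SE 0.27, adjusted p = 0.65, limma). Of the mRNAs with upstream reading frames, IFRD1 had 27.1 ± 18.5 TPM in siEIF3G, against 3.57 ± 1.38 TPM in siCtrl polysomal RNA, without overlap (2.47, SE 0.65), and SLC35A4 had 66.8 ± 41.5 TPM in siEIF3G and 103 ± 24.9 TPM in siCtrl polysomal RNA (-0.86, SE 0.44). Of all tested genes 21.6% were separate and higher, and 7.61% separate and lower, in this comparison. Without siEIF3G polysomal 3 the medians of the 3 lists were 0.12, 0.35 and 0.30, against 0.20 over all genes, and IFRD1 was the 1 gene of the lists that passed (log2 fold change 1.97, adjusted p = 0.0485, limma), against 0.0372% of all tested genes; both siEIF3G input 2 and siCtrl input 1 were left out of that model too.

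In input RNA none of the genes of the 3 lists passed between siEIF3G and siCtrl cells. At an unadjusted p under 0.05 (limma) were 0, 0 and 2 of them, against 1.36% of all tested genes. The medians of the lists were -0.07, 0.03 and 0.53, against -0.05 over all genes. The medians were -0.21, -0.09 and 0.42, against -0.20 over all genes, without the 3 libraries that stood apart. On the first list EIF2A, which can deliver initiator tRNA, was highest, with 60.1 ± 34.3 TPM in siEIF3G and 53.3 ± 36.6 TPM in siCtrl input RNA (0.25, SE 0.67). EIF5A2, a paralog of EIF5A, was lowest on it, with 2.08 ± 1.19 TPM in siEIF3G and 5.13 ± 3.10 TPM in siCtrl input RNA (-0.94, SE 0.44). DDIT3, a stress-induced transcription factor, was highest among the mRNAs with upstream reading frames, with 109 ± 105 TPM in siEIF3G and 32.0 ± 15.4 TPM in siCtrl input RNA (log2 fold change 1.45, SE 0.64), and the groups overlapped. PPP1R15A, which directs the phosphatase to eIF2 alpha and is on both the second and the third list, had 35.0 ± 19.2 TPM in siEIF3G and 22.5 ± 6.15 TPM in siCtrl input RNA (0.52, SE 0.37). The lowest of the second list was PPP1CB, another catalytic subunit of that phosphatase, with 23.4 ± 12.8 TPM in siEIF3G and 33.7 ± 18.7 TPM in siCtrl input RNA (-0.52, SE 0.52). SLC35A4 was lowest on the third list, with 107 ± 10.8 TPM in siEIF3G and 126 ± 10.5 TPM in siCtrl input RNA (-0.24, SE 0.44).

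Polysomal against input RNA in siCtrl cells gave calls in each list: 2 higher and 6 lower of 11, 1 higher and 5 lower of 16, and 0 higher and 2 lower of 8, against 36.9% of all tested genes. They were 2 higher and 7 lower, 1 higher and 11 lower, and 0 higher and 4 lower, against 75.3% of all genes, without the 3 libraries that stood apart. EIF5A was higher on polysomes (log2 fold change 1.00, SE 0.26, adjusted p = 0.0276, limma), as was PPP1CA (1.44, SE 0.27, adjusted p = 0.00992). EIF2A was lower (-2.17, SE 0.67, adjusted p = 0.0395, limma), as were the eIF2 kinase EIF2AK4 (-1.93, SE 0.71, adjusted p = 0.0492) and EPRS1, a tRNA synthetase (-2.89, SE 0.85, adjusted p = 0.0358). CEBPB, a transcription factor and the highest of the third list, had 0.36 (SE 0.52) and did not pass. When siCtrl polysomal 1, 2 or 3 or siCtrl input 2 or 3 was left out alone, no gene of the first or the third list was called, and of the second list PPP1CA was called except without siCtrl polysomal 2. Those fits called 1.22% to 2.54% of all tested genes. Without siEIF3G polysomal 1 the calls were 2, 1 and 0, against 10.3% of all tested genes. In siEIF3G cells none of the 3 lists had a call between fractions (4, 3 and 1 genes at an unadjusted p under 0.05, limma, against 20.5% of all tested genes). Without the 3 libraries that stood apart the calls in siEIF3G cells were 10, 13 and 4, against 71.3% of all genes. With all 12 libraries the nearest to a call was EIF6, which keeps the ribosomal subunits apart, with 2883 ± 183 TPM in polysomal RNA, against 1438 ± 486 TPM in input RNA (1.05, SE 0.27, adjusted p = 0.0518, limma). It was the highest of the first list, and DENR, which acts in reinitiation and recycling, was the lowest (-1.42, SE 0.62). On the second list the ends were EIF2B2, a subunit of the exchange factor (1.14, SE 0.43), and IMPACT, an inhibitor of EIF2AK4 (-1.27, SE 0.62), and on the list of mRNAs with upstream reading frames CEBPB (0.17, SE 0.52) and EPRS1 (-1.45, SE 0.85).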

How the data were processed

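The deposited table gives TPM per gene and library, which the authors computed with RSEM 1.3.1 on GRCh38.p13, per the submitters' processing notes. The sources used here do not give the aligner, the annotation or any filter. Values were analysed as log2(TPM + 1) for the 10605 of 16172 genes that averaged 1 TPM or more; this scale understates the fold change of low genes. One linear model with 4 group means (8 residual degrees of freedom) was fitted to all 12 libraries with limma 3.58.1 (R 4.3.3). It used a trend, Benjamini-Hochberg adjustment over all genes and a threshold of 0.05. A trial on simulated data drew the noise of each gene on its own. In these libraries 1 axis held 78.0% of the within-group variance, so the trial does not cover that shared spread. The labels do not say that replicates are separate cultures, so a p-value here reflects how far these libraries scatter, and that scatter may be technical. No 2 libraries held the same values. The genes named beside the 10 are EIF3G, MTRNR2L2, the highest and lowest gene of each further list in a comparison, cell type markers, and the 5 with the most similar profile. The genes and lists were chosen with earlier results of these data known, and the promoter motifs and stretches after the sequences had been seen. Alternatives were pseudocounts of 0.1 and 5, all genes kept, a minimum mean of 5 TPM, size factors, quantile normalization, no trend, only the groups compared, a replicate block, a covariate for each library's place on the main axis of variation within groups, each library left out, and the 3 libraries that stood apart left out; for ratios and further lists the last was chosen after seeing the data.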

Additional observations from a re-analysis of the deposited data

How the results depend on the processing

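Read depth is unknown, 3 libraries per group limit every test, and TPM show no change in total mRNA. Over the alternatives, members called in the 2 knockdown comparisons and in loading stayed at 0 except with the axis covariate, which is computed from the same libraries and changes only the residual spread: 8 in polysomal RNA and 3 in loading, among 3855 and 1912 of 10605 genes, against 2 and 0 without the covariate. For polysomal against input RNA the covariate gave 6 calls in siEIF3G and 9 in siCtrl cells, among 6496 and 7878 genes, and leaving out the 3 libraries gave 10 in each, among 7668 and 8100 of 10760 genes. Calls in siEIF3G cells were 0 with size factors, without the trend or with only the groups compared, against 0.447%, 1.4% and 0.641% of all tested genes. They ran over 0 to 1 with single libraries left out, against 0.413% to 7.37% of all tested genes. In siCtrl cells they were 1 with size factors (EIF5B), against 43.2% of all tested genes. They were 1 with a pseudocount of 5, no filter or only the groups compared (EIF2D in each), against 13.3%, 7.73% and 5.75% of all tested genes. They ran over 0 to 9 with single libraries left out, against 1.22% to 67.9% of all tested genes. The labels do not say whether replicate numbers pair the libraries. Of 18 correlations of same-numbered deviations, 6 were over 0.1 (-0.689 to 0.712). These cannot settle the pairing, since groups held 3 libraries and 1 axis held 78.0% of the within-group variance. With the replicate block 2 members were called in siCtrl cells, EIF5B and EIF2D, among 2121 genes, against 3912 without it; no other call of the 10 changed. The median relative to all genes was -0.69 in siEIF3G cells with quantile normalization and -0.78 without the 3 libraries, against -0.04 with the main settings, and in siCtrl cells -1.17 with no filter and -1.14 with quantile normalization, against -0.51. The cause of these moves was not tested.

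With size factors signs turned for EIF1AX (-0.0048) and EIF2D (-0.061) in polysomal knockdown, EIF1 (-0.21) and EIF2D (-0.44, and -0.32 with quantile normalization) in loading, and, for polysomal against input RNA, EIF1 (0.38), EIF5 (0.11), EIF2S1 (0.52), EIF2S2 (0.12), BZW1 (0.025) and BZW2 (0.14) in siEIF3G and EIF1 (0.59), EIF2S1 (0.32) and BZW2 (0.079) in siCtrl cells. In these 4 comparisons size factors moved the median of all genes from 0.33, 0.38, -0.49 and -0.96 to -0.05, -0.09, 0.04 and 0.05. The median of the 10 relative to all genes went from 0.64, 0.41, -0.04 and -0.51 to 0.51, 0.32, 0.02 and -0.40. Without the 3 libraries EIF2S3 was at -0.020 in input knockdown and EIF1AX at -0.024 in polysomal knockdown, and the log2 ratios of EIF2S1 to EIF2S3 in polysomal knockdown (0.061), EIF2S2 to EIF2S3 in input knockdown (0.14) and EIF5 to its mimics between fractions in siEIF3G cells (-0.027) turned.

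Leaving out single libraries, input knockdown ran from -0.69 to 0.37 (EIF1AX), -0.29 to 1.14 (EIF5), -0.45 to 0.75 (EIF2S1), -0.58 to 0.77 (EIF2S2), -0.62 to 0.75 (EIF2S3), -1.01 to 0.52 (EIF5B), -0.73 to 0.62 (BZW1) and -0.17 to 0.78 (BZW2). EIF1AX ran from -0.024 to 0.78 in polysomal knockdown. Loading ran from -0.055 to 0.77 (EIF1) and -0.063 to 0.35 (EIF2D). Polysomal against input in siEIF3G cells ran from -0.63 to 0.19 (EIF1) and -0.63 to 0.25 (EIF2S1). The log2 ratios whose sign turned were EIF2S1/EIF2S3 (-0.092 to 0.18 in input and -0.51 to 0.061 in polysomal knockdown), EIF2S2/EIF2S3 (-0.20 to 0.045, input knockdown), EIF1/EIF5 (-0.36 to 0.75, input knockdown; -0.33 to 0.78, fractions in siEIF3G cells), EIF5/(BZW1+BZW2) (-0.020 to 0.15, fractions in siEIF3G cells) and BZW1/BZW2 (-0.25 to 0.16, polysomal knockdown; -0.47 to 0.23, fractions in siEIF3G cells).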
